A study of Homo sapiens with 8 samples.

Results

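The comparison described here is how far the gene response of NTera2/D1 cells to retinoic acid (RA) differed when RNF20 was depleted. It was chosen by sample: 7 of the 8 arrays of the series enter it, and 4 of them, numbered GF120, also give it on their own. NTera2/D1 is an established human embryonal carcinoma line, a cultured tumour counterpart of pluripotent stem cells, and all arrays come from it. RNF20 was knocked down by RNA interference (siRNF20), and the control cells received an interfering RNA to LacZ, a bacterial gene that human cells lack (siLacZ). They were then kept for 72 h in DMSO, the solvent, or in 10 µM RA. The 7 arrays are 2 of DMSO siLacZ, 1 of RA siLacZ, 2 of DMSO siRNF20 and 2 of RA siRNF20, and within a pair 1 array carries the number GF117 and 1 carries GF120. The labels call the pairs biological duplicates and do not say what the GF numbers stand for, so that p-values measure the spread between these samples.

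RA binds nuclear receptors that sit on DNA with a partner receptor, and it turns them from repressors into activators of nearby genes. In embryonal carcinoma cells it switches off the genes of the pluripotent state and switches on HOX genes, its own degrading enzymes and genes of neural and other lineages. RNF20 forms, with RNF40, the ubiquitin ligase for histone H2B, a mark laid down along transcribed genes. USP44 is an enzyme that takes this ubiquitin off again. The question put by the design is whether cells with less RNF20 respond to RA in another way.

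The quantity followed is the difference between responses: RA minus DMSO in siRNF20 cells, minus RA minus DMSO in siLacZ cells, on the log2 scale. A value of 1 means that the RA to DMSO ratio was 2-fold higher with siRNF20. It is positive both for a gene that RA lowers less and for one that RA raises more. Gene values are medians of log2 intensities over the probe sets of a gene, and the fit holds the GF number as a block. The GF117 array of RA siLacZ was left out because its gene values correlated at only 0.078 to 0.185 with the 7 others, which correlated at 0.908 to 0.974 with one another. Log2 values under 3.97, the level of the median array row, are dim, and a difference that uses them is uncertain in size. Of the genes given with values, 6 have such a value on at least 1 array: RARB, HOXA5, LAMA4, DIO2, CCDC190 and EPCIP-AS1. Every difference below therefore rests on 1 RA siLacZ array, assumed to vary like the others, and the value within GF120 alone shares that array. In cultures of mixed cells, fewer cells of a kind and less RNA per cell cannot be told apart.

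RNF20 itself was lower on all 4 siRNF20 arrays than on all 3 siLacZ arrays. In log2 intensity it read 8.24 and 8.10 with DMSO and 8.10 with RA in siLacZ cells, and 6.48 and 5.99 with DMSO and 6.27 and 5.89 with RA in siRNF20 cells; where 2 arrays of a group are given, here and below, GF117 comes first. The knockdown difference was -1.94 in DMSO (SE 0.17, adjusted p = 0.00152) and -2.19 in RA (SE 0.21, adjusted p = 0.00287). RNF20 was the only gene that passed for siRNF20 in DMSO, 0.00534% of the 18732 genes tested. With RA, 162 genes (0.865%) were higher and 70 (0.374%) lower with siRNF20. The DMSO comparison has 2 arrays per group and the RA comparison only 1 RA siLacZ array, so the counts rest on unlike bases. The RA response of RNF20 differed by -0.26 (SE 0.27, adjusted p = 0.824), that of RNF40 by 0.02 (SE 0.25, adjusted p = 0.991) and that of USP44 by -0.10 (SE 0.20, adjusted p = 0.91). USP44 fell with RA in both backgrounds, by values of -1.01 in siLacZ and -1.11 in siRNF20 cells. The 25 measured genes of the H2B ubiquitylation machinery gave 0 calls with limma and none at an unadjusted p under 0.05. The members furthest from 0 were USP12 (-0.51) and USP22 (0.36), both deubiquitylases, SSRP1 (0.40), a subunit of the histone chaperone FACT, and ATXN7L3 (0.32), an adaptor of the deubiquitylating module of SAGA. A positive difference was found in only 8 of 17 probe sets of ATXN7L3 and 5 of 35 of RNF40.

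Most of the RA response was present in both backgrounds. In siLacZ cells 871 genes rose (4.65%) and 921 fell (4.92%), and in siRNF20 cells 772 rose (4.12%) and 1187 fell (6.34%). In the same direction 997 genes passed in both, 55.6% of those of siLacZ and 50.9% of those of siRNF20, and 1 gene, OLFML3, passed in opposite directions. The difference between the responses passed for 4 genes, 0.0214% of those tested: LMO3 and MEST were lower and GJA1 and RPL9 higher with siRNF20. At an unadjusted p under 0.05 there were 875 genes higher (4.67%) and 814 lower (4.35%). The median SE of a difference was 0.31 on the log2 scale, and 729 genes differed by at least 1 in size. Over all genes tested the median difference was -0.03, and 46.5% of the genes had a positive value.

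The responses of the 2 backgrounds were nearly as alike as those of the 2 siRNF20 replicates. Across genes, which are not independent, the siLacZ GF120 response correlated at Pearson r = 0.582 with the siRNF20 GF120 response and at 0.595 with the siRNF20 GF117 response. The siRNF20 responses of GF117 and GF120 correlated at 0.62. Within GF120 the interquartile range of the difference between backgrounds was 0.6, against 0.513 between the siRNF20 responses of the 2 numbers. Differences of at least 1 in size made up 6.06% of genes in the first case and 4.49% in the second.

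**Figure D1:**
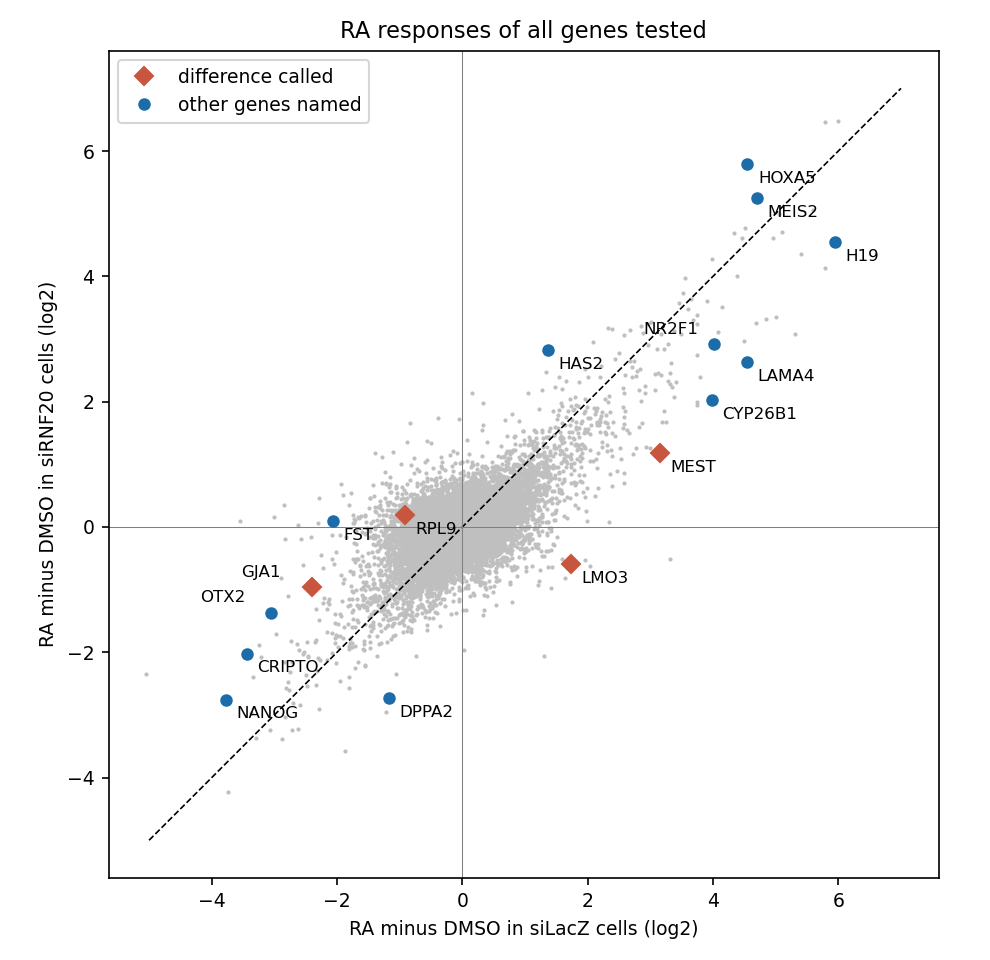
RA response of each of the 18732 genes tested in siLacZ cells (horizontal axis, log2 RA minus DMSO) and in siRNF20 cells (vertical axis), from the fit to 7 arrays; the dashed line marks equal responses. The 4 genes whose difference passed are diamonds, and among the other named genes NANOG, OTX2 and CRIPTO lie above the line at the lower left and CYP26B1, LAMA4 and H19 below it at the upper right.

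To describe RA responsive genes without choosing them on the arrays compared, 200 genes per side were taken from the siRNF20 arrays of GF117 and followed in GF120. The 200 genes raised there had a median response of 2.18 in siLacZ and 1.76 in siRNF20 cells of GF120. For 137 of the 200 the response was larger in size in siLacZ, and 187 rose in siLacZ and 190 in siRNF20. The interquartile range of these genes was 1.23 to 3.15 in siLacZ and 1.13 to 2.58 in siRNF20. The 200 genes lowered there had medians of -1.24 in siLacZ and -1.44 in siRNF20. For 85 of them the response was larger in size in siLacZ, and 185 fell in siLacZ and 180 in siRNF20. The counts by size ignore the sign, and the like share over all genes is not given here. The median difference was -0.26 for the raised and -0.07 for the lowered genes. The choice was made on siRNF20 cells and so favours genes that respond in them. These are single arrays, with no test.

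The regulatory sequence that ties RA to its direct targets is a repeat of a short receptor motif. RefSeq promoter windows (GRCh38.p14, 250 bases before to 50 after a start) were searched on both strands for GGTCA or GTTCA, 6 bases, and again GGTCA or GTTCA. The 60 bases around it are shown for RARB, an RA receptor gene, and CYP26A1, an RA-degrading enzyme, because both had large RA responses in either background. Capitals mark the 2 copies of the motif. In RARB they end 37 bases before the start on chr3, at chr3:25428189-25428248 on the plus strand. In CYP26A1, at chr10:93073781-93073840, they lie on the strand opposite to the gene and so read TGAAC, ending 75 bases before the start.
RARB: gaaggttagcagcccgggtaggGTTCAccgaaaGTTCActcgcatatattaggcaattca
CYP26A1: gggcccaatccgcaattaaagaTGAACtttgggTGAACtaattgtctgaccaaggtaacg
The repeat was found in 61 of 35116 windows (0.174%). Of the 32 genes tested that hold it, 3 rose with RA in siLacZ cells (9.38%, against 4.65% of all genes) and 2 in siRNF20 cells (6.25%, against 4.12%), and 18 had a positive difference between responses (56.2%, against 46.5%). RARB and CYP26A1, shown for their large RA responses, are the 2 counted in siRNF20 cells and 2 of the 3 in siLacZ cells. The shares that rose therefore largely restate that choice. The repeat was not found in any window of MEST, LMO3, GJA1, RPL9, CYP26B1, H19, OTX2, NANOG or SOX2. A match is a string of letters in this window, not a bound site.

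Among retinoid genes, RA raised the receptor and the enzyme with the repeat in both backgrounds. RARB log2 intensity was 3.83 and 3.95 with DMSO and 9.44 with RA in siLacZ cells, and 3.90 and 2.70 with DMSO and 9.92 and 9.61 with RA in siRNF20 cells. The difference was 0.68 (95% interval -0.26 to 1.62, adjusted p = 0.675). CYP26A1 stood at 5.46 and 6.22 with DMSO and 10.43 with RA in siLacZ cells, and 5.68 and 5.40 with DMSO and 10.33 and 10.29 with RA in siRNF20 cells, with a difference of 0.26 (95% interval -0.51 to 1.02). These 2 genes were picked after their values were seen. CYP26B1, a second RA-degrading enzyme, had the lowest difference of the list, -1.95 (SE 0.39, adjusted p = 0.128). On the arrays it was at 5.38 and 5.26 with DMSO and 9.03 with RA in siLacZ cells, and 5.20 and 4.92 with DMSO and 7.67 and 6.49 with RA in siRNF20 cells. Both RA siRNF20 arrays lay below the RA siLacZ array, and the pair spread by 1.18 between themselves. With RA, CYP26B1 passed as lower with siRNF20 (adjusted p = 0.0118). NR2F1 and NR2F2, the COUP-TF orphan receptors that RA induces, rose with RA in both backgrounds. NR2F2 responded by 1.91 in siLacZ and 0.72 in siRNF20 cells and NR2F1 by 4.02 in siLacZ and 2.92 in siRNF20 cells, with differences of -1.18 and -1.10 that did not pass. A negative difference was found in 9 of 17 probe sets of NR2F2 and 6 of 10 of NR2F1. ALDH1A1, an RA-synthesizing enzyme, did not pass in either background and differed by -1.18. In all, 13 of the 26 retinoid genes measured had a positive difference. With limma 0 passed, and at an unadjusted p under 0.05 there was 1 higher and 5 lower, 3.85% and 19.2% against 4.67% and 4.35% of all genes. The list's median difference was 0.02.

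Of 34 pluripotency genes measured, 18 fell with RA in siLacZ cells and 18 in siRNF20 cells, and the genes with the largest differences had them in both directions. NANOG, a core pluripotency factor, had log2 intensities of 9.90 and 9.76 with DMSO and 6.02 with RA in siLacZ cells, and 9.96 and 9.88 with DMSO and 7.19 and 7.14 with RA in siRNF20 cells. Its response was -3.77 in siLacZ and -2.76 in siRNF20 cells, a difference of 1.02 (SE 0.21, adjusted p = 0.151). The DMSO arrays of both backgrounds lay between 9.76 and 9.96 and the RA arrays did not overlap. OTX2, a homeobox factor of primed pluripotency and anterior neural tissue, stood at 8.66 and 9.03 with DMSO and 5.85 with RA in siLacZ cells, and 8.39 and 8.68 with DMSO and 7.30 and 7.03 with RA in siRNF20 cells. It responded by -3.06 in siLacZ and -1.37 in siRNF20 cells, a difference of 1.69 (SE 0.29, adjusted p = 0.109). CRIPTO, a NODAL co-receptor, differed by 1.42 (SE 0.22, adjusted p = 0.0737) over 2 probe sets and can share signal with its near-identical copy CRIPTO3. SOX2, added after its values were seen, passed as lower with RA in siLacZ cells, with responses of -0.63 in siLacZ and 0.22 in siRNF20 cells and a difference of 0.86 (SE 0.16, adjusted p = 0.128). Going the other way, DPPA2, a gene of the early embryo and germ line, responded by -1.17 in siLacZ and -2.73 in siRNF20 cells. Its difference was -1.57 (SE 0.34, adjusted p = 0.155). POU5F1 (-0.51) and KLF4 (-0.49), reprogramming factors, and ZFP42 (-0.47), a marker of undifferentiated cells, also had negative values that did not pass, and these 3 were added after their values were seen. POU5F1 and KLF4 fell with RA in both backgrounds. Within GF120 alone the difference of POU5F1 was -0.03. A negative difference was found in 2 of 3 probe sets of POU5F1, 4 of 11 of KLF4 and 1 of 2 of ZFP42. The 3 genes were not the next in size in the list, where FGF4 (0.63) was larger and positive.

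None of these differences passed over all genes, but with RA alone NANOG, OTX2 and CRIPTO passed as higher with siRNF20 (adjusted p = 0.0139, 0.0183 and 0.00623), a comparison that uses the same RA siLacZ array. Of the 34 pluripotency genes, 23 had a positive difference. With limma 0 passed, and at an unadjusted p under 0.05 there were 7 higher and 2 lower, 20.6% and 5.88% against 4.67% and 4.35% of all genes. The median difference was 0.18. The median log2 intensity of the list was 6.37 on the RA siLacZ array against 7.12 and 6.96 on the RA siRNF20 arrays, and 8.21 to 8.41 on the DMSO arrays. The median response of the list was -0.85 in siLacZ GF120, -0.62 in siRNF20 GF117 and -0.78 in siRNF20 GF120. The siLacZ value lay closer to the siRNF20 GF120 value than the 2 siRNF20 values did to each other.

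**Figure D2:**
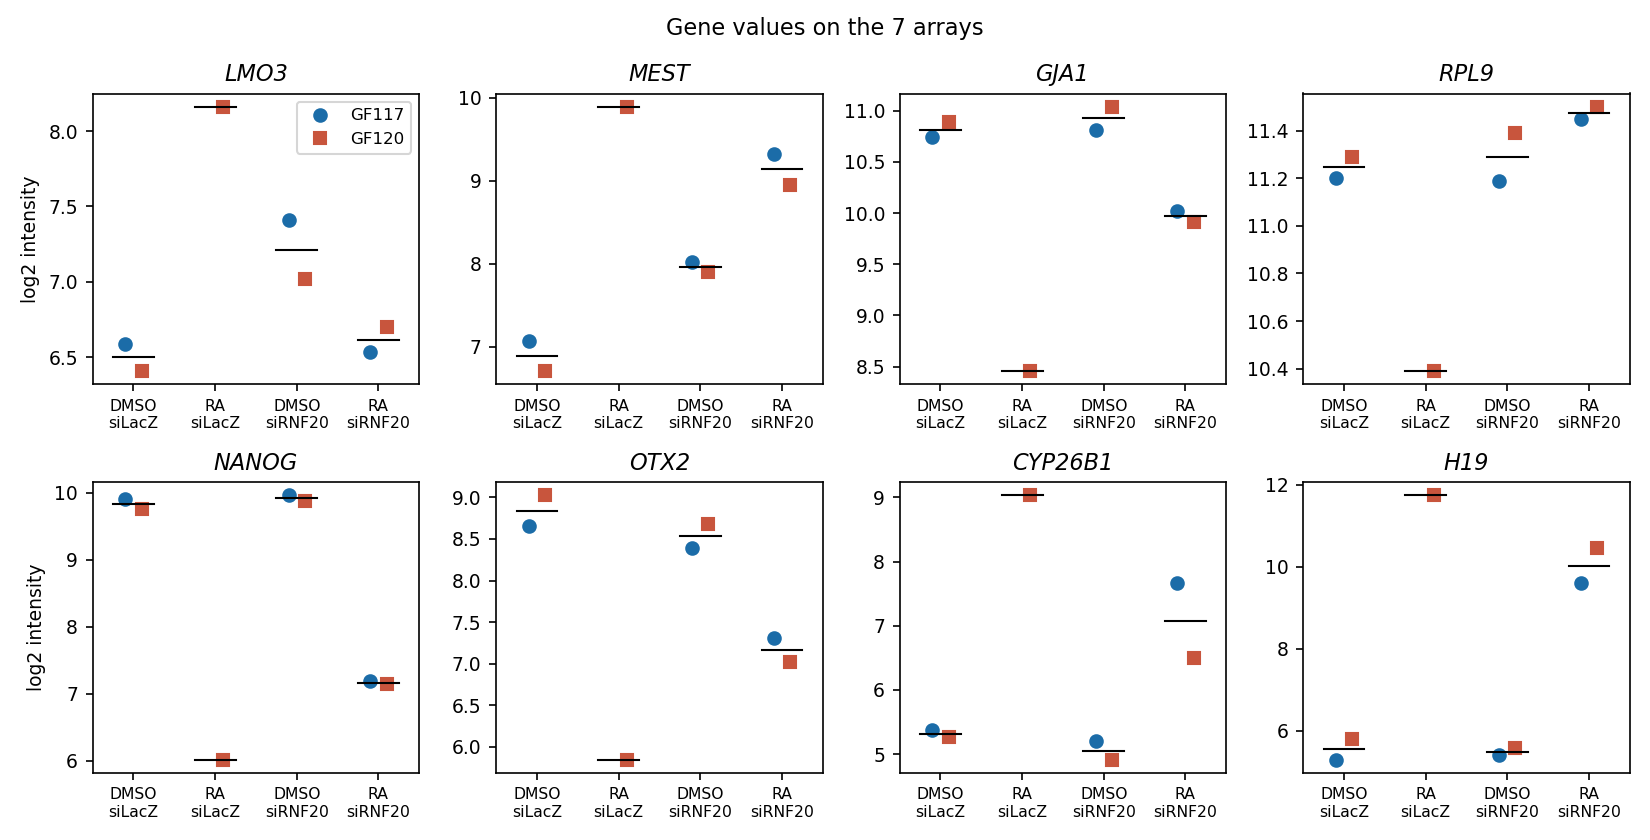
Log2 intensity of 8 genes on the 7 arrays, by group (horizontal axis), with circles for GF117, squares for GF120 and a bar at the group mean; the vertical axes differ between genes. For GJA1, RPL9, NANOG and OTX2 the RA siLacZ array is the lowest of the 7, and for LMO3, MEST, CYP26B1 and H19 it is the highest.

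MEST and LMO3 were the genes whose RA response was lower with siRNF20. MEST, an imprinted gene expressed from the paternal copy in mesoderm, had log2 intensities of 7.07 and 6.71 with DMSO and 9.89 with RA in siLacZ cells, and 8.03 and 7.90 with DMSO and 9.33 and 8.95 with RA in siRNF20 cells. RA raised it in both backgrounds, by 3.15 in siLacZ and 1.18 in siRNF20 cells, and the difference was -1.98 (SE 0.23, adjusted p = 0.0348), -2.14 within GF120. The lower response came from both ends, since the DMSO siRNF20 arrays were above the DMSO siLacZ arrays and the RA siRNF20 arrays below the RA siLacZ array. Of its 16 probe sets 15 had a negative difference. LMO3, a LIM-only transcriptional co-factor of neural tissue, stood at 6.59 and 6.41 with DMSO and 8.16 with RA in siLacZ cells, and 7.41 and 7.02 with DMSO and 6.54 and 6.70 with RA in siRNF20 cells. RA raised it in siLacZ cells (1.73, adjusted p = 0.000574), while the response in siRNF20 cells was -0.60 and did not pass (adjusted p = 0.0541). The difference was -2.33 (SE 0.29, adjusted p = 0.0348), -2.08 within GF120, and 10 of 11 probe sets went that way.

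GJA1 and RPL9 had the higher response. GJA1, which encodes the gap junction protein connexin 43, stood at 10.74 and 10.89 with DMSO and 8.46 with RA in siLacZ cells, and 10.81 and 11.04 with DMSO and 10.02 and 9.91 with RA in siRNF20 cells. RA lowered it in both backgrounds, by values of -2.40 in siLacZ and -0.96 in siRNF20 cells. The difference was 1.44 (SE 0.19, adjusted p = 0.0348), 1.30 within GF120, and all 4 probe sets used had a positive value. The 4 DMSO arrays were alike and the RA arrays were apart. RPL9, a protein of the large ribosomal subunit, was at 11.20 and 11.29 with DMSO and 10.39 with RA in siLacZ cells, and 11.19 and 11.39 with DMSO and 11.45 and 11.50 with RA in siRNF20 cells. The RA siLacZ array was the lowest of the 7, and the other 6 lay between 11.19 and 11.50. Its difference was 1.10 (SE 0.15, adjusted p = 0.0358), with a positive value in 18 of 25 probe sets. Ribosomal protein genes have many processed copies in the genome, so that their probe sets can share signal.

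The 4 calls depended on the model. Without the GF block 0 genes passed, with 457 higher and 280 lower at an unadjusted p under 0.05, and 0 passed without the intensity trend, after quantile normalization, without the filter on dim rows or with the mean over rows, which gave RPL9 a difference of 0.31. The stricter filter gave GJA1 a difference of 0.97 with an adjusted p of 0.157. With all 8 arrays 0 passed and the sign of MEST turned (0.09).

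The promoters of the 4 genes are shown for comparison with those of the direct targets above: the 100 bases before the most upstream RefSeq start of each, with CpG dinucleotides in capitals. They differ in CpG content. RPL9 has 11 CpG in these bases and MEST 4, while LMO3 and GJA1 have 0. For MEST and for LMO3 the start shown is 1 of 5 listed, and RPL9 and GJA1 have 1 each. The whole windows of the starts shown hold 26 CpG in RPL9, 13 in MEST, 3 in LMO3 and 3 in GJA1. The median over the genes tested, at the window with the most, was 25. The positions in GRCh38.p14 are chr12:16608215-16608314 (minus strand), chr7:130486075-130486174 (plus), chr6:121435546-121435645 (plus) and chr4:39458923-39459022 (minus).
LMO3: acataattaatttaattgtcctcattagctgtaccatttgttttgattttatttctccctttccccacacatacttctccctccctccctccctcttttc
MEST: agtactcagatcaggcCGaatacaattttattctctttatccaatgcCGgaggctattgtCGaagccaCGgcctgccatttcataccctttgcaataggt
GJA1: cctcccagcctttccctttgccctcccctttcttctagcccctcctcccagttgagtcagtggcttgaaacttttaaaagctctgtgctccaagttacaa
RPL9: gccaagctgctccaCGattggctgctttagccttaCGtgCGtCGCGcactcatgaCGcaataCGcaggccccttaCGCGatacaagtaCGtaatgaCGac

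The genes next in order by limma's moderated t did not pass. On the lower side these were APOBEC3F (-1.87 (SE 0.29, adjusted p = 0.0759)), a cytidine deaminase of antiviral defence, MEIS3P2 (-1.54), ZNF610 (-1.35), EPCIP-AS1 (-3.83), SHROOM4 (-1.55), an actin-binding protein, and CABYR (-1.65), a calcium-binding sperm protein. APOBEC3F stood at 5.77 and 5.34 with DMSO and 7.90 with RA in siLacZ cells, and 5.90 and 5.47 with DMSO and 6.64 and 6.13 with RA in siRNF20 cells. The RA siLacZ array was the highest of the 7, and the 2 RA siRNF20 arrays were between it and the DMSO arrays of their own number. MEIS3P2 and EPCIP-AS1 were read by 1 probe set each. On the higher side these were CRIPTO, given above, DIO2 (2.38 (SE 0.36, adjusted p = 0.0737)), a thyroid hormone deiodinase, SNRPE (1.25), a core spliceosomal protein, SCARNA7 (1.80), a small Cajal body RNA, CCDC190 (3.20) and LIN7B (1.51), a scaffold of cell junctions. DIO2 was at 5.95 and 6.03 with DMSO and 3.52 with RA in siLacZ cells, and 5.70 and 5.85 with DMSO and 5.35 and 5.80 with RA in siRNF20 cells. SNRPE, SCARNA7, CCDC190 and LIN7B had their lowest value on the RA siLacZ array too. SCARNA7 and CCDC190 were read by 1 probe set each.

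At both ends of the ranking the siLacZ response was the larger one, which the ranking itself favours, since the difference contains the single RA siLacZ array. Of the 100 genes highest by moderated t, 88 were called as lowered by RA in siLacZ cells, with a median response of -1.23 there and 0.09 in siRNF20 cells. Of the 100 lowest, 71 were called as raised by RA in siLacZ cells, with medians of 1.33 and 0.03. Within these 200 genes the siRNF20 response was the smaller in size for 92 and 83 per 100, against 61.0% of all genes tested and 763 of the 871 genes raised in siLacZ cells (87.6%), which were also chosen on that array. These counts are a description. The 100 highest were short, with a median gene length of 8.68 kb against 25.2 kb for all genes tested, and 25 of them were read by 1 probe set.

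Gene length went with the difference, and also with the difference between replicates of one condition. Over 10 classes of gene length with equal numbers of genes, the median difference ran from 0.09 in the shortest class (median 1.54 kb) to -0.14 in the longest (median 257 kb). The siRNF20 response of GF120 minus that of GF117, which holds no knockdown comparison, ran from 0.06 to -0.13 over the same classes. Within GF120 alone the difference between backgrounds ran from 0.12 to -0.22. Leaving out 1 array at a time, the longest class minus the shortest was -0.34 (without the GF117 DMSO siRNF20 array) to -0.12 (without the GF120 RA siRNF20 array), against -0.24 with 7 arrays. Without the GF block the longest class was at -0.02 and the shortest at 0.07, and with all 8 arrays the longest was at 0.66. The share of genes with an unadjusted p under 0.05 in the higher direction was 8.81% in the shortest and 1.88% in the longest class.

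**Figure D3:**
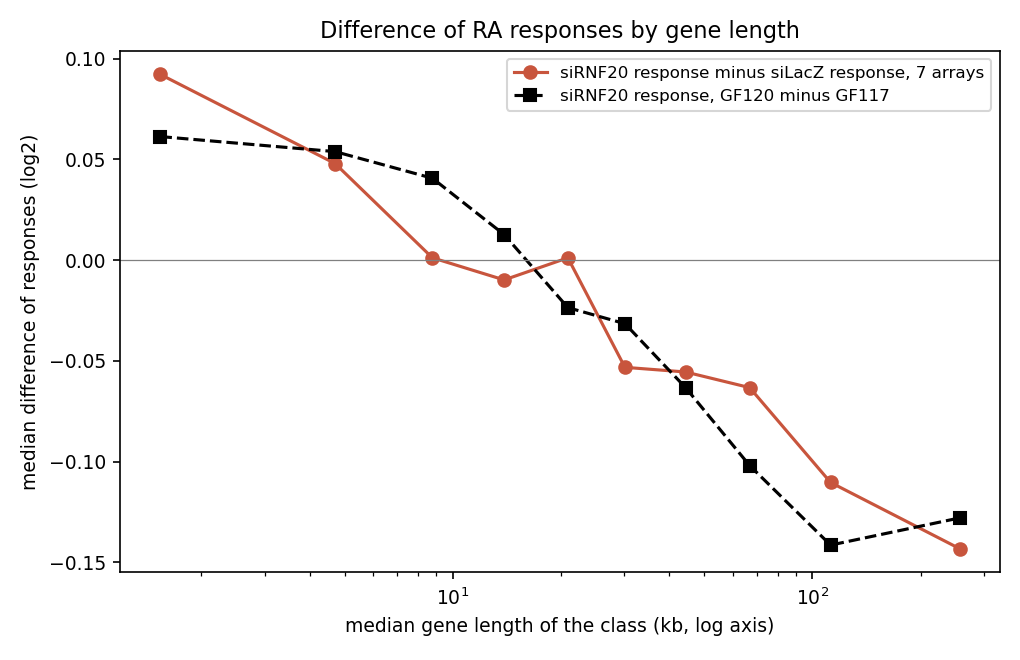
Median difference of RA responses (vertical axis, log2) in 10 classes of gene length (horizontal axis, median length in kb on a log axis): circles, siRNF20 minus siLacZ over 7 arrays; squares, siRNF20 GF120 minus siRNF20 GF117. Both lines fall from the shortest to the longest genes, from 0.09 to -0.14 and from 0.06 to -0.13.

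Imprinted genes, which are expressed from 1 parental copy, differed in direction. Of 20 measured 12 had a positive difference, MEST passed as lower, and at an unadjusted p under 0.05 there were 0 higher and 4 lower, 0% and 20% against 4.67% and 4.35% of all genes. H19, a long non-coding RNA of growth control, stood at 5.29 and 5.79 with DMSO and 11.74 with RA in siLacZ cells, and 5.40 and 5.57 with DMSO and 9.59 and 10.45 with RA in siRNF20 cells. RA raised it in both backgrounds by 5.95 in siLacZ and 4.54 in siRNF20 cells, and the difference was -1.40 (SE 0.29, adjusted p = 0.138). Both RA siRNF20 arrays were below the RA siLacZ array, and with RA H19 passed as lower with siRNF20 (adjusted p = 0.0143). PEG3, a zinc finger gene, was at -1.25, with 1 of its 3 probe sets going that way, and MAGEL2 at 0.74, neither past the threshold.

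HOX genes, the body-axis regulators that RA switches on in order along their clusters, are the classic RA targets. In siLacZ cells 15 of 36 measured passed as raised and in siRNF20 cells 12. The median response was 0.49 in siLacZ GF120, 0.28 in siRNF20 GF117 and 0.33 in siRNF20 GF120. The median difference was -0.06, with 15 positive, and with limma 0 passed (1 higher and 3 lower at an unadjusted p under 0.05). These are 2.78% and 8.33% of the list, against 4.67% and 4.35% of all genes, of which 46.5% were positive. HOXA5 had the most positive value (1.24) and was at 4.03 and 3.88 with DMSO and 8.69 with RA in siLacZ cells, and 1.85 and 3.06 with DMSO and 8.22 and 8.27 with RA in siRNF20 cells. Its difference went with the low and scattered DMSO siRNF20 arrays, which are in the dim range, and the 3 RA arrays lay within 8.22 and 8.69. Only 3 of its 7 probe sets had a positive difference. HOXD4 responded by 3.31 in siLacZ and 2.45 in siRNF20 cells (difference -0.86). HOXD10 responded by -0.56 in siLacZ and -1.56 in siRNF20 cells and HOXD11 by -0.47 in siLacZ and -1.46 in siRNF20 cells. The differences were -0.998 and -0.99, with 6 of 7 and 6 of 10 probe sets going that way. Among 10 TALE cofactors, the homeodomain partners of HOX proteins, MEIS1 responded by 3.17 in siLacZ and 2.42 in siRNF20 cells and MEIS2 by 4.70 in siLacZ and 5.24 in siRNF20 cells. Their differences were -0.74 and 0.54, those of PBX3 and PKNOX1 0.39 and -0.34, and 0 passed (0 higher and 1 lower at an unadjusted p under 0.05).

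Neuronal genes had more negative than positive differences. Of 32 proneural and neuronal genes measured, 12 had a positive difference (46.5% of all genes did), with a median of -0.17. Over 15 alternatives this median was -0.20 to 0.23, positive with all 8 arrays, and it was -0.0604 without the GF120 DMSO siLacZ array, -0.0519 with the stricter filter and -0.0526 with the mean over rows. With limma 0 passed, and at an unadjusted p under 0.05 there were 0 higher and 6 lower (18.8% against 4.35% of all genes). DCX, a microtubule protein of migrating young neurons, stood at 6.25 and 6.16 with DMSO and 8.75 with RA in siLacZ cells, and 6.69 and 6.55 with DMSO and 8.29 and 8.05 with RA in siRNF20 cells. It rose with RA in both backgrounds, by 2.63 in siLacZ and 1.55 in siRNF20 cells, a difference of -1.08 (SE 0.25, adjusted p = 0.187). ONECUT2, a neuronal transcription factor, differed by -1.11, GAP43, a growth cone protein, by -0.84 and STMN2, a neuronal microtubule regulator, by 0.85. The median response of the list was 0.17 in siLacZ GF120, -0.10 in siRNF20 GF117 and -0.06 in siRNF20 GF120. Neural progenitor genes had a median difference of 0.11, with 17 of 29 positive and 2 higher and 1 lower at an unadjusted p under 0.05. CDH2, N-cadherin, was at 7.21 and 7.09 with DMSO and 9.55 with RA in siLacZ cells, and 7.65 and 7.58 with DMSO and 9.06 and 9.05 with RA in siRNF20 cells, a difference of -0.99 (SE 0.23, adjusted p = 0.174). VIM, an intermediate filament gene (0.71), SOX9 (0.68) and PAX3 (-0.66), transcription factors of progenitors and neural crest, did not pass.

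**Figure D4:**
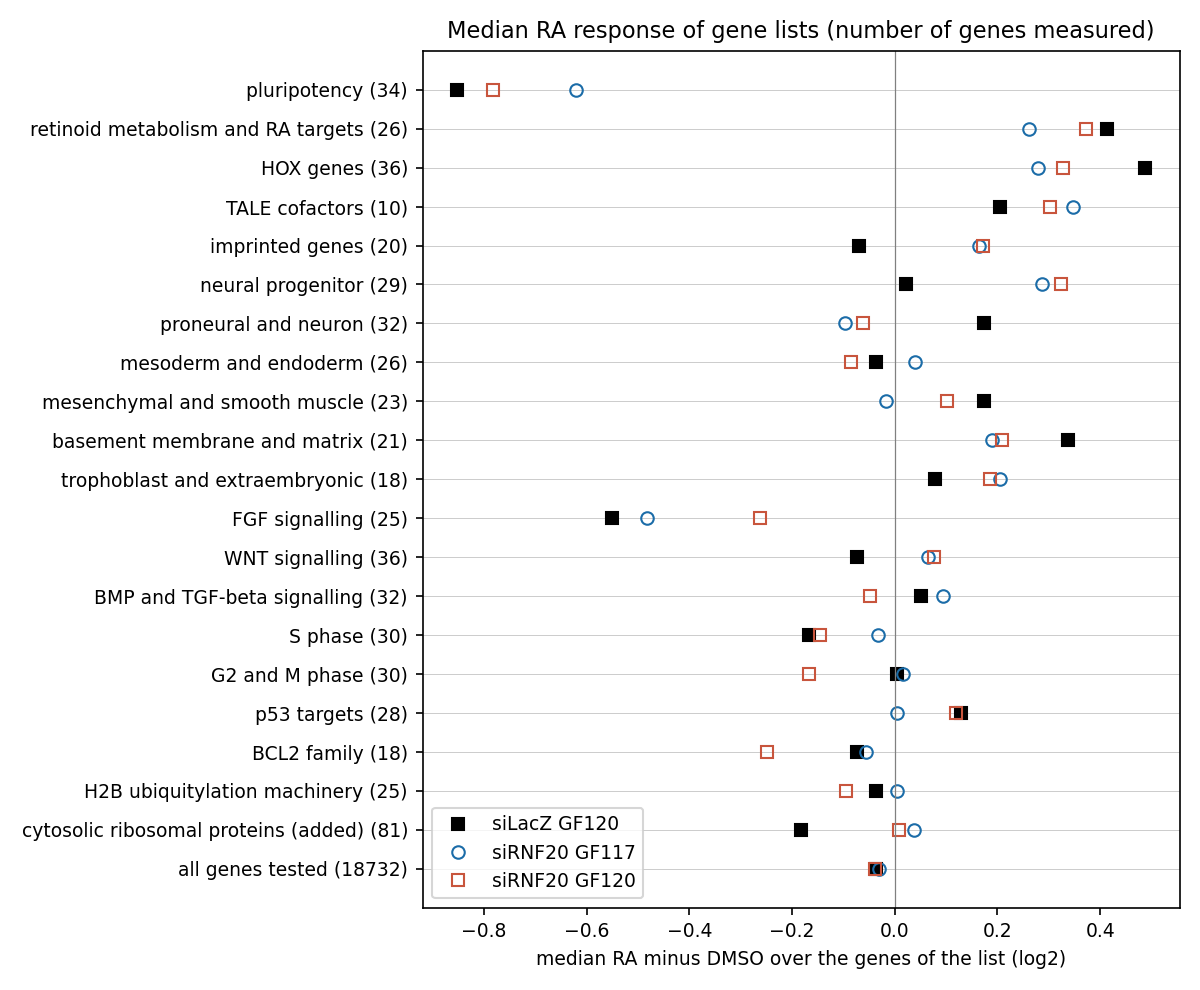
Median RA response (horizontal axis, log2 RA minus DMSO) of 20 gene lists and of all genes, with the number of genes measured in brackets: filled squares, siLacZ GF120; open circles, siRNF20 GF117; open squares, siRNF20 GF120. Pluripotency lies furthest below 0 in each and the 3 medians of all genes coincide near -0.04.

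In the matrix list the 2 largest differences had opposite signs. LAMA4, a laminin chain of basement membranes, stood at 3.53 and 3.79 with DMSO and 8.11 with RA in siLacZ cells, and 4.26 and 3.90 with DMSO and 6.94 and 6.48 with RA in siRNF20 cells. RA raised it by 4.55 in siLacZ and 2.63 in siRNF20 cells, a difference of -1.91 (SE 0.41, adjusted p = 0.155), with 3 of the 4 DMSO arrays in the dim range. HAS2, which makes hyaluronan, went the other way, with 5.16 and 5.18 with DMSO and 6.41 with RA in siLacZ cells, and 5.98 and 6.07 with DMSO and 9.25 and 8.44 with RA in siRNF20 cells. RA raised HAS2 by 1.36 in siLacZ and 2.82 in siRNF20 cells, and the difference was 1.46 (SE 0.36, adjusted p = 0.217). NID2 (-0.72), a basement membrane linker, and COL12A1 (-0.62), a fibril-associated collagen, followed in size. Of the 21 matrix genes 7 had a positive difference and 0 passed (1 higher and 2 lower at an unadjusted p under 0.05). Beside this and the next 2 lists, 46.5% of all genes were positive, and 4.67% were higher and 4.35% lower at that p. MEOX1, a somite factor, responded by 3.21 in siLacZ and 1.84 in siRNF20 cells and PDGFRA, a growth factor receptor of mesenchyme, by 2.83 in siLacZ and 1.60 in siRNF20 cells. Their differences were -1.37 and -1.23. FOXF1 (0.81) and MIXL1 (-0.79) complete the 4 of mesoderm and endoderm, where 14 of 26 were positive, 1 was higher and 2 lower at that p and 0 passed. ACTA2, smooth muscle actin, passed as raised in siLacZ cells (1.99) and was at 0.62 in siRNF20 cells, a difference of -1.38 (SE 0.36, adjusted p = 0.247). COL1A1 (-0.74) and COL5A2 (-0.50), fibrillar collagens, had smaller values, and of 23 mesenchymal genes, VIM among them, 8 were positive, with 1 higher and 2 lower at an unadjusted p under 0.05 and 0 passing.

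Trophoblast and extraembryonic genes had the largest list median, 0.30 over 18 genes, of which 12 were positive, 2 were higher and 0 lower at an unadjusted p under 0.05 and 0 passed. The shares over all genes were 46.5% positive, 4.67% higher and 4.35% lower. GATA3, a trophoblast factor, stood at 4.76 and 5.59 with DMSO and 5.68 with RA in siLacZ cells, and 4.68 and 5.11 with DMSO and 6.49 and 6.39 with RA in siRNF20 cells. It passed as raised by RA in siRNF20 cells (1.54) and not in siLacZ cells (0.31), and the difference itself did not pass (1.23). TFAP2A, a factor of ectoderm and trophoblast, rose by 1.33 in siLacZ and 2.47 in siRNF20 cells, a difference of 1.14 (SE 0.32, adjusted p = 0.283). IGFBP3 (1.08), a binder of insulin-like growth factors, and TP63 (-0.85), a p53 relative of epithelia, completed the group. The median turned negative with all 8 arrays (-0.30) and fell to 0.11 without the filter on dim rows.

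Signalling genes gave a few large differences, and none of those in the 3 lists passed. FST, a secreted inhibitor of activin, had the largest positive difference of the BMP and TGF-beta list. It was at 7.57 and 8.27 with DMSO and 5.97 with RA in siLacZ cells, and 7.29 and 8.07 with DMSO and 8.18 and 7.38 with RA in siRNF20 cells, a difference of 2.16 (SE 0.49, adjusted p = 0.17), with the RA siLacZ array lowest and the 2 siRNF20 responses of opposite sign. ID1 and ID3, targets of BMP signalling that hold back differentiation, fell with RA in both backgrounds. ID1 responded by -1.90 in siLacZ and -0.83 in siRNF20 cells (difference 1.06) and ID3 by -2.12 in siLacZ and -1.22 in siRNF20 cells (difference 0.90). All 8 probe sets of ID1 and 3 of 6 of ID3 had a positive difference. GREM1, a BMP inhibitor, was at 0.86. Of 32 genes 13 were positive, 4 were higher and 3 lower at an unadjusted p under 0.05 and 0 passed. For this list and the 2 that follow, the shares over all genes were 46.5% positive, 4.67% higher and 4.35% lower. In WNT signalling 21 of 36 were positive, 2 higher and 2 lower at that p, and 0 passed. WNT7B, a ligand read by 1 probe set, had a difference of 1.94 (SE 0.40, adjusted p = 0.138), and FRZB (-0.99), SFRP2 (-0.70), both secreted WNT inhibitors, and NKD2 (0.78) followed. Among FGF genes, whose median response was -0.55 in siLacZ GF120, -0.48 in siRNF20 GF117 and -0.26 in siRNF20 GF120, 13 of 25 were positive, with 2 higher and 0 lower at that p and 0 passing. SPRY2, a feedback inhibitor of FGF signalling, fell by values of -2.63 in siLacZ and -1.87 in siRNF20 cells (difference 0.77). FGF2 (0.66), FGF4 (0.63) and FGF1 (0.67) are ligands. FGF1 had a positive difference in only 3 of 7 probe sets.

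No gene of the cell cycle and cell death lists passed the test of the difference. PCNA, the sliding clamp of replication, stood at 8.96 and 8.96 with DMSO and 7.95 with RA in siLacZ cells, and 9.05 and 9.55 with DMSO and 9.19 and 9.34 with RA in siRNF20 cells. It fell with RA in siLacZ cells (-1.12) and was at -0.04 in siRNF20 cells, a difference of 1.08 (SE 0.23, adjusted p = 0.155). RFC4 (0.91), the loader of that clamp, MCM4 (0.52), a helicase subunit, and GINS1 (0.50) were next, and of 30 S phase genes 13 were positive, 4 higher and 0 lower at an unadjusted p under 0.05 and 0 passed. GINS1 had a positive difference in only 3 of 10 probe sets. The G2 and M phase list had a median of -0.20 with 9 of 30 positive, led by PTTG1 (-0.97), securin, and NEK2 (0.67), AURKA (-0.52) and CDC25C (-0.47), regulators of mitosis. NEK2 had a positive difference in only 10 of 22 probe sets. Without the GF block the median of the G2 and M phase list was 0.000798, and with all 8 arrays 1.83. For p53 targets the median was -0.20 with 7 of 28 positive, but -0.0159 without the block, -0.0943 with the mean over rows and 0.62 with all 8 arrays. CCNG1 (0.74) and TIGAR (0.66) were positive and SERTAD1 (-0.66) and POLH (-0.60) negative. The BCL2 family, regulators of apoptosis, had a median of -0.25 with 5 of 18 positive. This median was -0.09 within GF120 alone and turned positive without the GF120 RA siRNF20 array (0.0205), with the mean over rows (0.0245) and with all 8 arrays (0.22). BNIP3 (0.67) and BBC3 (0.52), which promote cell death, stood opposite to BCL2L1 (-0.66), which prevents it, and BCL2L11 (-0.60), which promotes it. With limma 0 passed in these 3 lists, and at an unadjusted p under 0.05 there were 1 higher and 3 lower in G2 and M phase, 2 and 1 among p53 targets and 0 and 2 in the BCL2 family. Among all genes tested 46.5% were positive, and 4.67% were higher and 4.35% lower at that p.

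Ribosomal protein genes, a list added after RPL9 was seen, had a median difference of 0.15 over 81 genes. Of these 56 were positive, RPL9 passed, and at an unadjusted p under 0.05 there were 19 higher and 5 lower, 23.5% and 6.17% of the list against 4.67% and 4.35% of all genes. The median response was -0.18 in siLacZ GF120, 0.04 in siRNF20 GF117 and 0.01 in siRNF20 GF120. RPL21 stood at 10.54 and 10.52 with DMSO and 9.97 with RA in siLacZ cells, and 10.28 and 10.42 with DMSO and 10.68 and 10.67 with RA in siRNF20 cells, a difference of 0.90 (SE 0.17, adjusted p = 0.128), and RPS27L was at 0.89. RPL23 went the other way, with a difference of -0.93 (SE 0.24, adjusted p = 0.235). On the RA siLacZ array the list's median log2 intensity was 9.72, against 9.94 to 10.21 on the other 6. The list was picked for 1 of its genes, and its median was 0.08 to 1.19 over 15 alternatives. Its genes were brighter than all genes tested (median log2 intensity 10.07 against 6.39) and shorter (median 5.1 kb against 25.2 kb). In the length class with a median of 4.71 kb, 7.36% of genes were higher at an unadjusted p under 0.05. Whether the list's share goes with length or brightness was not tested.

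No gene of the histone methylation, Polycomb and histone lists passed the test of the difference. H2B ubiquitin is known to promote methylation of histone H3 by the SET1 and MLL complexes and by DOT1L. Of 17 genes of that list 8 had a positive difference, and with limma 0 passed and none had an unadjusted p under 0.05. Here and for the next 2 lists, 46.5% of all genes were positive, and 4.67% were higher and 4.35% lower at that p. DPY30, a shared subunit of the SET1 and MLL complexes, stood at 10.09 and 10.06 with DMSO and 9.32 with RA in siLacZ cells, and 10.25 and 10.29 with DMSO and 9.95 and 9.87 with RA in siRNF20 cells, a difference of 0.38 (SE 0.17, adjusted p = 0.553). SETD1A (0.37), a catalytic subunit, KDM5C (-0.32), a demethylase, and MLLT3 (-0.51), a partner of DOT1L, were of like size. Of 27 Polycomb genes, which repress developmental genes, 11 were positive and 0 passed (0 higher and 1 lower at that p). CBX7 (-0.74), EZH1 (-0.69), PCGF6 (0.60) and JARID2 (0.49) were the furthest from 0. Of 24 replication-dependent histone genes, whose near-identical copies can share signal, 9 were positive and 0 passed (0 higher and 3 lower). The largest differences were those of H2BC17 (-0.96), H2BC15 (-0.74), H2AC4 (0.74, 1 probe set) and H2BC13 (0.48).

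**Figure D5:**
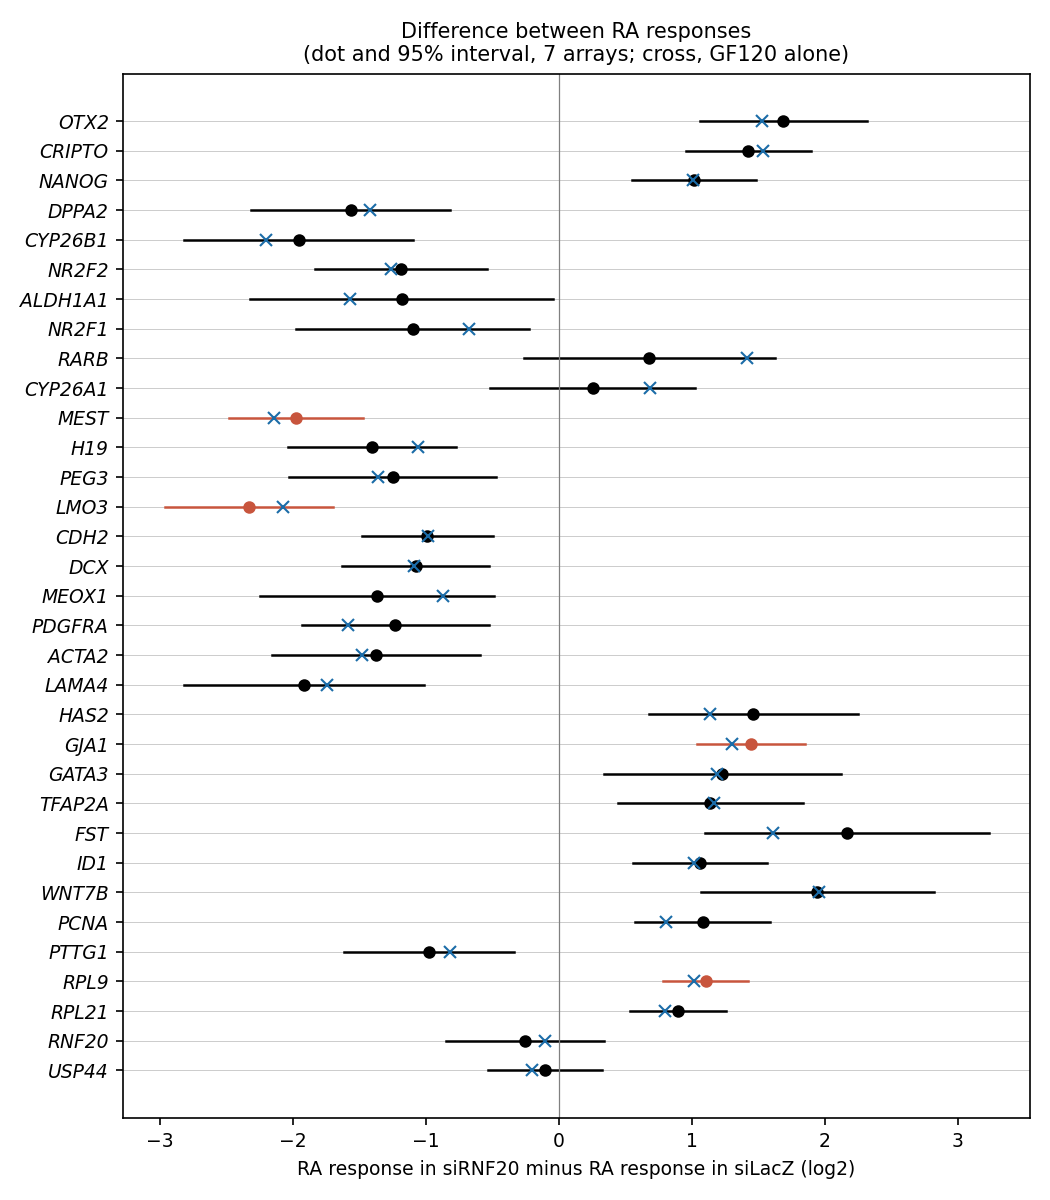
Difference between RA responses (horizontal axis, log2, siRNF20 minus siLacZ) of 33 named genes: dots with 95% intervals from the fit to 7 arrays, in orange where the adjusted p was under 0.05, and crosses for GF120 alone. The 4 genes in orange are MEST, LMO3, GJA1 and RPL9, and the intervals of RARB, CYP26A1, RNF20 and USP44 include 0.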

How the data were processed

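Human exon array values of NTera2/D1 cells were used, 1 table of 8 arrays. The authors deposited linear intensities, 1 per array row and array, and the background correction and normalization behind them are not given in the sources used here. Of 1384231 rows, 354600 had 1 gene symbol in the platform annotation; rows with several symbols or none were left out. Rows whose mean over the 7 arrays was at or below the median row (log2 3.97) were left out, and a gene's value is the median of the log2 intensities of its other rows, which left 18732 genes. Old symbols were updated through the RefSeq gene table. Arrays have no depth in counts, and their number limits the precision.

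limma (version 3.58.1, R version 4.3.3) fitted the 4 group means and the GF number as a fixed block to 7 arrays, with an intensity trend in eBayes. Each adjusted p comes from limma's moderated test (two-sided; Benjamini-Hochberg over 18732 genes), and genes were called below 0.05; 2 residual degrees of freedom stood beside a prior of 9.75. The GF numbers were taken as a pairing because deviations of same-numbered arrays from their group means correlated at 0.297, 0.301 and 0.364 in the 3 pairs of groups with both numbers. The scripts were tested on simulated data. Figures were drawn with matplotlib 3.10.9 under Python 3.11.15.

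Named genes were RNF20, RNF40 and USP44; called genes; the largest moderated t up to 8 per side; and up to 4 members per list with the largest difference in size. RARB, CYP26A1, SOX2, POU5F1, KLF4, ZFP42 and the ribosomal list were added after their values were seen. The comparison and the gene lists were chosen with earlier results of these data known. No set test was run. Alternatives were the block, all 8 arrays, each of 6 arrays left out, filters, row means, an offset of 16, no trend, quantile normalization and centring; all 8 arrays without the block was added after seeing the data. Genes with near-identical copies can share signal.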

Additional observations from a re-analysis of the deposited data

Results flagged for a closer look

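Both directions of the tested difference between backgrounds gave calls: the RA response was lower with siRNF20 for LMO3 (-2.33) and MEST (-1.98) and higher for RPL9 (1.10) and GJA1 (1.44), each in a test of the difference itself with the single RA siLacZ array of GF120. The GF117 RA siLacZ array, which entered no comparison here, read 10.86 for H19 and 8.33 for CYP26A1 in log2 intensity. Both values are above those of the 2 DMSO siLacZ arrays, which read 5.29 and 5.79 for H19 and 5.46 and 6.22 for CYP26A1. Other genes that RA raised in siLacZ cells of GF120 read below both DMSO siLacZ arrays on it: MEST (6.06), MEIS1 (5.42), CDH2 (5.69) and DCX (5.17). RNF20 read 6.08 on it, against 8.1 to 8.2 on the other siLacZ arrays. On the same array the median log2 intensity was 5.58 for pluripotency genes and 7.60 for ribosomal protein genes, against lowest values of 6.37 and 9.72 on the other 7. The difference between this array and the others was not tested.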

How the results depend on the processing

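The count of genes called (2 higher and 2 lower) changed under each alternative other than the offset. Without the replicate block it was 0 and 0, and it was also 0 and 0 with all 8 arrays (with or without the block), without the filter on dim rows, with the mean over rows, without an intensity trend in eBayes and after quantile normalization. A stricter filter gave 9 higher and 2 lower, and arrays centred on the median gave 5 and 2. Leaving out 1 array at a time gave 8 to 115 higher and 4 to 50 lower, the most without the GF120 DMSO siRNF20 array. Such fits have fewer arrays with which to estimate the spread, and the RA siLacZ array of GF120 could not be left out. The adjusted p of the 4 called genes ranged from 2.62e-06 to 0.984 over these alternatives. The median of trophoblast and extraembryonic genes was 0.239 with no replicate block, -0.297 with all 8 arrays, 0.112 with no filter, 0.177 with the mean over rows, 0.209 with the offset, 0.274 after quantile normalization, 0.347 after centring and 0.341 in GF120 alone. For G2 and M phase genes it was 0.000798 with no block and 1.83 with all 8 arrays. For p53 targets it was -0.0159 with no block, 0.617 with all 8 arrays and -0.0943 with the mean over rows. For the BCL2 family it was 0.218 with all 8 arrays, 0.0245 with the mean over rows and -0.0948 in GF120 alone.

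Leaving out 1 array at a time these medians ranged from 0.119 to 0.341 (trophoblast and extraembryonic), -0.244 to -0.0774 (G2 and M phase), -0.276 to -0.125 (p53 targets), -0.29 to 0.0205 (BCL2 family). With all 8 arrays the sign turned for RNF20 (0.925), USP44 (2.29), MEST (0.0949), ZNF610 (0.679), HOXD10 (1.16), MEIS1 (1.34), PKNOX1 (1.54), CDH2 (0.972), SOX9 (-0.0553), DCX (0.792), GAP43 (0.299), PDGFRA (0.236), FOXF1 (-0.258), NID2 (0.534), COL12A1 (0.122), PEG3 (0.979), FRZB (0.243), NKD2 (-0.574), SFRP2 (0.358), PTTG1 (0.103), AURKA (2.28), CDC25C (1.06), POLH (0.605), BCL2L11 (0.705), BBC3 (-0.693), USP12 (1.37), RPL23 (0.368), MLLT3 (1.54), KDM5C (0.86), EZH1 (0.593), RAB25 (0.729), HLA-C (-1.13), SLIT2 (0.415), UNC5C (-0.614), SLC7A5 (0.445), CEBPB (-0.347) and KLF4 (0.383). It turned with no replicate block for USP44 (0.114) and MLLT3 (0.128), with no filter for STMN2 (-0.191), FOXF1 (-0.0449), FGF1 (-0.725), RPS27L (-0.617) and HLA-C (-0.239), with the stricter filter for RNF40 (-0.415), RARB (-0.0391), PAX3 (0.0306), FOXF1 (-0.38), PEG3 (1.13), GREM1 (-0.32), FGF1 (-0.458), SERTAD1 (0.433), GRHL2 (0.485), UNC5C (-0.0448), POU5F1 (0.0376) and ZFP42 (0.164), with the mean over rows for RNF40 (-0.315), HOXA5 (-0.273), PBX3 (-0.0216), PEG3 (0.49), SSRP1 (-0.0134) and RPL23 (0.0579) and in GF120 alone for RNF40 (-0.12). With 1 array left out, over the range in brackets, it turned for RNF40 (-0.12 to 0.124; turned without the GF117 DMSO siRNF20 array, -0.12 and without the GF117 RA siRNF20 array, -0.0295), USP44 (-0.198 to 0.0733; turned without the GF120 RA siRNF20 array, 0.0733), CYP26A1 (-0.358 to 0.685; turned without the GF120 DMSO siLacZ array, -0.358), NKD2 (-0.0521 to 1.47; turned without the GF120 RA siRNF20 array, -0.0521), BBC3 (-0.0704 to 0.95; turned without the GF120 DMSO siLacZ array, -0.0704), GRHL2 (-0.931 to 0.0678; turned without the GF120 DMSO siLacZ array, 0.0678) and PSMB9 (-0.0878 to 0.905; turned without the GF120 RA siRNF20 array, -0.0878). The cause of these changes was not tested. No other named gene changed sign under an alternative. For the 200 genes per side followed in GF120, lists of 100 and 400 genes gave medians of -0.23 and -0.23 for raised and -0.07 and -0.06 for lowered genes.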

Other observations

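Some lists outside those above held single genes with differences near 1 on the log2 scale, and none of them passed with limma. Epithelial genes gave 1 higher and 0 lower at an unadjusted p under 0.05 of 18 measured (4.67% and 4.35% of all genes). EPCAM, an adhesion protein of epithelial and pluripotent cells, stood at 9.18 and 9.16 with DMSO and 7.11 with RA in siLacZ cells, and 9.32 and 9.72 with DMSO and 8.29 and 8.37 with RA in siRNF20 cells. It fell with RA in both backgrounds (log2 change -2.14 in siLacZ and -1.19 in siRNF20 cells), with a difference of 0.95 (SE 0.23, adjusted p = 0.215), and with RA it passed as higher with siRNF20 (adjusted p = 0.0118). The next largest differences were those of KRT19 (0.55), RAB25 (-0.53) and GRHL2 (-0.49), all with an unadjusted p over 0.05. In antigen presentation by MHC class I, 2 of 17 were higher and 0 lower at that p. B2M, the light chain of MHC class I, was at 7.48 and 7.42 with DMSO and 6.39 with RA in siLacZ cells, and 7.80 and 8.16 with DMSO and 7.62 and 7.79 with RA in siRNF20 cells, a difference of 0.87 (SE 0.26, adjusted p = 0.335), with the RA siLacZ array lowest. HLA-C, whose signal can be shared with other class I genes, was at 0.997 but negative with no filter on dim rows and with all 8 arrays, PSMB9 at 0.56 and TAP1 at -0.70.

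Among 25 regulators of G1, 6 were higher and 0 lower at an unadjusted p under 0.05 (24% against 4.67% of all genes), and 4 of the 6 are the ID genes. ID1 and ID3 are given above, ID4 was at 0.69 and CDKN1B, an inhibitor of cyclin-dependent kinases, at 0.99 (SE 0.27, adjusted p = 0.261). CDKN1B read 8.23 and 8.09 with DMSO and 7.77 with RA in siLacZ cells, and 7.81 and 8.27 with DMSO and 8.57 and 8.60 with RA in siRNF20 cells. Of 27 genes of the ATF4 and unfolded protein responses 4 were higher and 2 lower at that p, and the largest differences in the list were those of DNAJB9 (0.90), SLC7A5 (-0.68), XBP1 (0.63) and CEBPB (0.55). XBP1 had a positive difference in only 5 of 12 probe sets. Of 31 axon guidance genes 1 was higher and 3 lower at that p, and the largest differences were those of EPHA7 (-1.10), SLIT2 (-0.90), UNC5C (0.83) and UNC5B (0.71).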
